A study of Sus scrofa with 11 samples.

Results

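Native porcine coronary arteries, which were not cultured, gave 2 of the 11 RNA sequencing libraries of a study that built a vessel culture model for testing stents. The 2 libraries were chosen by their titles alone, which mark them as native controls. The other 9 libraries came from porcine coronary arteries kept in a bioreactor and serve here as the reference. They were stented arteries without flow (stented static, 2 libraries), stented arteries under the flow marked ++ (stented high-flow, 3 libraries), arteries without a stent under that same flow mark (high-flow, 2 libraries) and arteries without a stent under the lower flow mark + (low-flow, 2 libraries). All libraries were made from total RNA of flash-frozen vessels. The sources used here state neither the breed, age and sex of the pigs nor the trimming of surrounding tissue. The sample names of both stented static libraries and of stented high-flow replicate 3 carry differing day-like marks that the labels do not explain, and the other cultured libraries carry none, so the length of culture may differ between cultured libraries. Whether replicate libraries stem from different animals is not stated, so each p-value reflects the spread among these libraries alone, and that spread may be technical.

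A coronary artery has an inner lining of endothelial cells, a thick media of smooth muscle cells and an outer adventitia of fibroblasts, small vessels, nerves and immune cells, embedded in fat beside heart muscle. Contractile smooth muscle cells shorten when calcium signals activate myosin light chain kinase, and thereby set the width of the vessel. Elastic fibres made with elastin let the wall recoil, and fibrillar collagens of types I and III give it tensile strength.

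The native libraries held 17507068 and 20242681 counts, and the cultured libraries held 13496636 to 26785124. The levels of genes within native arteries are given as pooled CPM, the usual depth-scaled counts, taken over both native libraries together. Wherever single genes of native and cultured libraries are set side by side, values are scaled CPM. For these, each library total was multiplied by its TMM normalisation factor. Shares of gene lists and of the most counted genes are of raw counts unless scaled totals are named. Scaling raised native over cultured values by 0.26 on the log2 scale relative to plain CPM. In a native library 3 counts corresponded to 0.171 or 0.148 CPM. Log2 CPM correlated at r = 0.971 between the native libraries and at 0.825 to 0.880 between a native and a cultured library, across genes, which are not independent replicates.

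Differences between native and cultured arteries are log2 fold changes of native over the mean of the 4 cultured groups, with their standard error after ±, so that a positive value is higher in native. The test was edgeR's quasi-likelihood F-test with Benjamini-Hochberg adjustment, and the words higher and lower mark genes with an adjusted p under 0.05. Of 15348 genes tested, 3949 passed (25.7%), of which 2447 were higher in native (15.9%) and 1502 were lower (9.79%), with a median log2 fold change of -0.02. Counts of list members below are to be read beside these shares. With n = 2 native libraries, the number of calls rests heavily on each of them, and 1693 genes passed without native replicate 1 and 1713 without native replicate 2. A gene named below as higher or lower kept its call when any 1 of the 11 libraries was left out, unless a lost call is stated. Other settings are named beside a gene where they ended its call or moved its fold change by over 1.5 times.

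The defining markers of smooth muscle, MYH11, ACTA2 and CNN1, had pooled native levels of 10340, 7569 and 3237 CPM. They show that smooth muscle was sampled but cannot tell a coronary artery from another smooth muscle tissue. In contrast, several genes of heart muscle had their native counts mostly in native replicate 1, and results on them are given below with and without that library. Some genes known to be widely expressed had almost no counts in these tables. The ribosomal protein genes RPL29 and RPS27A, the peroxidase GPX4, the complex I subunit NDUFA2 and the transcription factor JUNB had 0 counts in all 11 libraries. TPI1, a glycolytic enzyme, was at 1.35 pooled CPM, and the myosin light chain MYL6 was at 3.50. A low or 0 count in these tables therefore does not show that a transcript was absent.

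The most counted genes of the native artery encoded fibrillar collagens, subunits of mitochondrial respiration and proteins of the smooth muscle cytoskeleton. COL3A1, the chain of type III collagen (chromosome 15, 93556914 to 93595678, Sscrofa11.1), led with 26089 pooled CPM. It was followed by the mitochondrially encoded cytochrome oxidase subunit COX1 with 23359, the type I collagen chain COL1A1 with 20328 and the oxidase subunit COX3 with 14928. The actin crosslinker FLNA had 14365, the ATP synthase subunit ATP6 had 12930, the collagen-binding protein SPARC had 10356, the smooth muscle myosin heavy chain MYH11 had 10340 and the second type I collagen chain COL1A2 had 10031 pooled CPM. These levels are not divided by transcript length, and a long transcript yields more reads per molecule, so the ranks compare counted reads. Among the 30 most counted genes, 5 had no symbol in the tables used here, led by ENSSSCG00000032599 with 14508 and ENSSSCG00000032395 with 12621 pooled CPM, and none of these 5 passed the test against cultured arteries.

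**Figure D1:**
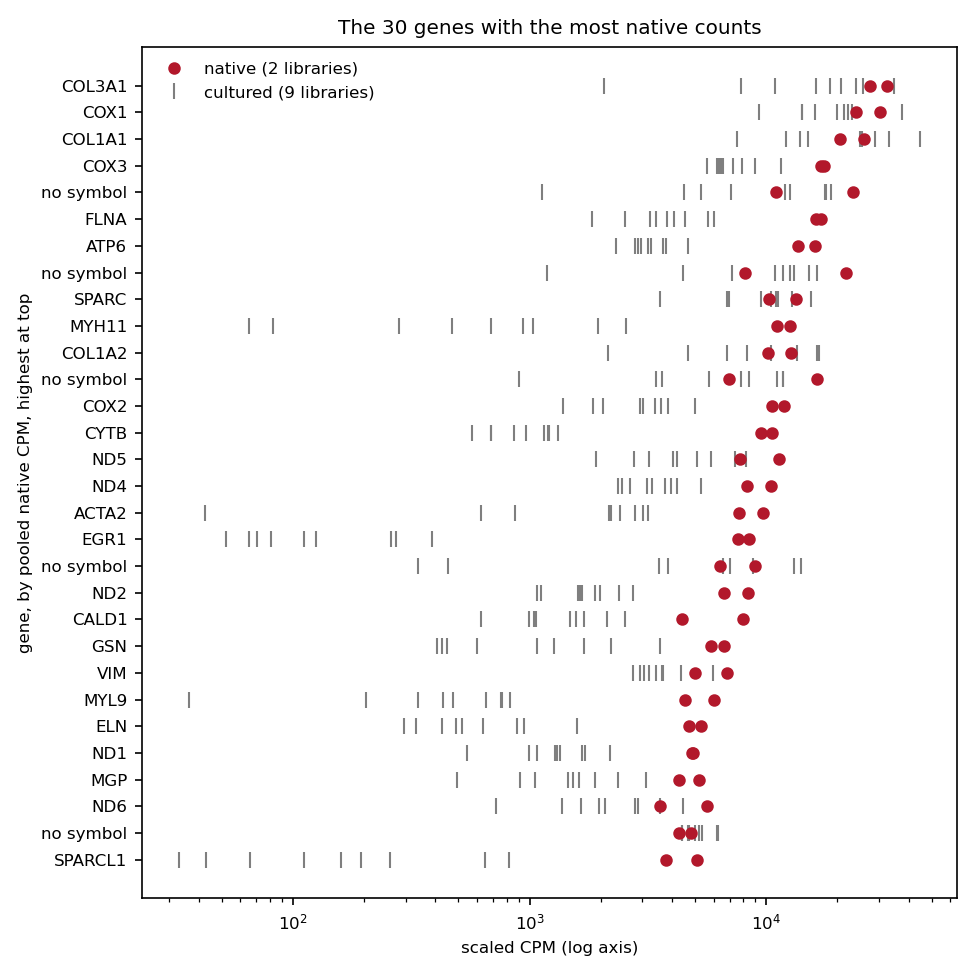
Scaled CPM (log axis) of the 30 genes with the most pooled native counts, highest at the top, in each of the 2 native libraries (red points) and the 9 cultured libraries (grey ticks). COL3A1, COX1 and COL1A1 overlap the cultured range, while FLNA, MYH11, ACTA2, EGR1, ELN and SPARCL1 lie above every cultured library.

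Counts were concentrated in few genes. In pooled native counts 239 genes held 50% of the total (240 and 235 in the single libraries), against 281 to 632 genes in the cultured libraries, so both native libraries lay below all 9. Wherever mitochondrially encoded genes are left out, here and below, these are the 13 protein genes of the mitochondrial genome only. Without them the number was 365 in pooled native counts (364 and 359 in the single libraries). In the cultured libraries it was 337 to 686, a range that overlaps the native values through stented high-flow replicate 2. That setting for the cultured libraries was chosen after seeing the data. The 10 most counted native genes took 16.0% of the counts, the 30 most counted took 28.8% and the 100 most counted took 41.1%, against 26.5% to 38.8% for the 100 most counted genes of each cultured library. At least 1 pooled CPM was reached by 13181 genes, at least 10 CPM by 8634 and at least 1000 CPM by 99. Genes without a symbol took 13.5% of native counts, inside the cultured range, which reached 16.7%.

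**Figure D2:**
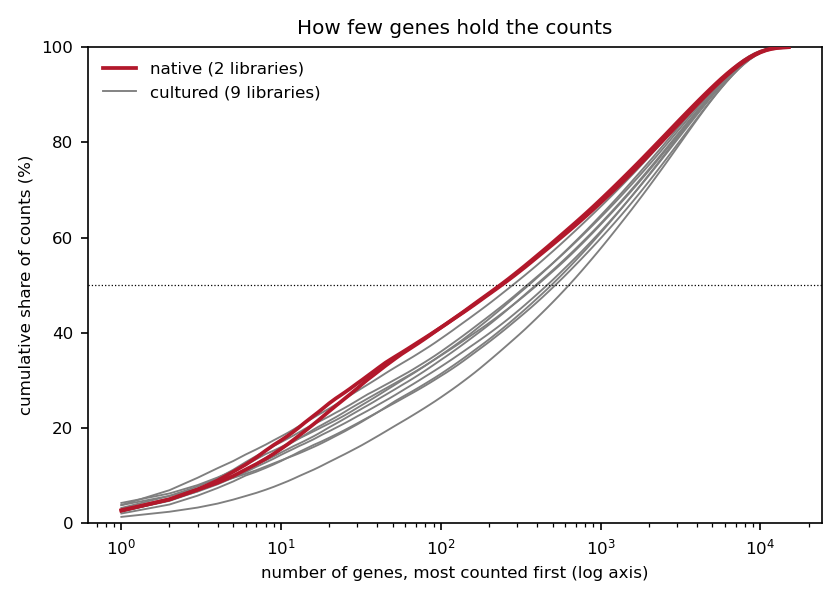
Cumulative share of all counts (%) against the number of genes, most counted first (log axis), for each native library (red) and cultured library (grey). The native curves cross the dotted 50% line at 240 and 235 genes, before every cultured curve.

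Sorted by function, the 100 most counted genes were led by 12 mitochondrially encoded genes with 10.4% of all native counts. Then came 9 genes of collagens and collagen assembly with 7.58% and 18 genes of contractile filaments and the actin cytoskeleton with 7.20%. Next came 14 genes without a symbol with 6.22%, 11 genes of proteoglycans and matricellular proteins with 2.36%, 6 genes of elastic fibres and basement membranes with 1.53% and 5 immediate early genes with 1.42%. The 100 most counted native genes shared 49 members with the 100 most counted of stented static, 52 with those of stented high-flow, 53 with those of high-flow and 57 with those of low-flow arteries. Of the 100, 59 were higher in native, 3 were lower and 38 did not pass, but choosing genes by their native level favours the higher ones. In pooled cultured counts 8 of the 100 ranked beyond 1000, among them FOS at 3013, NR4A1 at 4662 and WIF1 at 4160.

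Genes of the contractile filament list were counted far more in native than in cultured arteries. Beside smooth muscle genes, this list holds general cytoskeleton genes. Among these were FLNA, ACTG1, ACTB, ACTN4 and TLN1, with 14365, 3317, 3003, 1183 and 1099 pooled native CPM. The list took 8.20% of native counts (7.60% and 8.72% in the 2 libraries), against 1.34% to 3.48% in the cultured libraries (median 2.84%). Of 47 members, all of them tested, 29 were higher in native arteries and 18 did not pass, with a median log2 fold change of 1.47, and in 32 of 47 both native libraries lay above all 9 cultured ones (16.9% of all tested genes did so). MYH11 (chromosome 3, 7002667 to 7143093), the motor protein of smooth muscle, had 11137 and 12614 scaled CPM in native libraries. Among cultured libraries it had 65.5 and 685 scaled CPM with a stent and no flow, and 934, 468 and 280 with a stent under high flow. Without a stent it had 82.0 and 1030 under high flow, then 1944 and 2568 under low flow. No cultured library reached the native level, and the low-flow libraries came closest. The log2 fold change was 4.05 ± 0.71 (edgeR adjusted p = 0.00194), and 4.67 without stented static replicate 2 or 4.72 without high-flow replicate 2. It was 4.68 against stented arteries only and 3.40 against arteries without a stent only. In these bulk samples fewer smooth muscle cells and less RNA per cell cannot be told apart.

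Several other members of the contractile filament list were also above every cultured library in both native libraries. The smooth muscle alpha-actin gene ACTA2 had 7661 and 9667 scaled CPM in native libraries, against 42.6 to 3168 in cultured libraries (median 2203). Its log2 fold change was 2.63 ± 0.57 (edgeR adjusted p = 0.00649), which was 3.36 without stented static replicate 2, and the call was lost without native replicate 2 (adjusted p = 0.0715) and with the cultured libraries as 1 group (2.17, adjusted p = 0.0645). It was 3.22 against stented arteries only and 2.01 against arteries without a stent only. CNN1, an actin-binding brake on myosin, had 3067 and 4319 scaled CPM in native and 24.7 to 505 in cultured libraries, a log2 fold change of 3.99 ± 0.58 (adjusted p = 0.000604). MYL9, the regulatory light chain that the kinase phosphorylates, had 4557 and 5996 in native and 36.4 to 829 in cultured libraries (log2 fold change 3.58 ± 0.54), and MYLK, the kinase itself, had 1294 and 1564 in native and 26.1 to 352 in cultured libraries (3.08 ± 0.55). FLNA stood at 16973 and 16200 in native and at 1834 to 6003 in cultured libraries (2.16 ± 0.25), the thin filament gene CALD1 at 4411 and 7957 in native and 624 to 2534 in cultured libraries (2.15 ± 0.34), and the LIM protein gene CSRP1 at 3853 and 4753 in native and 194 to 614 in cultured libraries (3.43 ± 0.30).

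Not all filament genes differed. The cytoplasmic actins ACTG1 and ACTB had 3730 and 3908, and 3176 and 3715, scaled CPM in native libraries, inside or just above the cultured ranges of 2154 to 5956 and 1526 to 3655, and neither passed (edgeR adjusted p = 0.881 and 0.170). The enteric actin ACTG2 had 1679 and 2469 scaled CPM in native libraries and 5.41 to 652 in cultured libraries (log2 fold change 3.88 ± 0.50), or 2.92 with the cultured libraries as 1 group. Actin genes are nearly identical in their coding sequence, and how reads matching several of them were counted is not stated, so the split between them is uncertain. TAGLN, a widely used smooth muscle marker, had only 54.2 and 32.8 scaled CPM in native libraries. Both lay above the 8.47 to 30.5 of cultured libraries, but it did not pass (edgeR adjusted p = 0.0907). As with MYL6, so low a count does not show that the transcript was scarce.

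Regulators of smooth muscle identity were counted far less than the filaments. The 27 matched members took 0.242% of native counts, against 0.121% to 0.208% in cultured libraries. Of 24 tested, 8 were higher in native, or 33.3% beside 15.9% among all genes, with a median log2 fold change of 0.63. The receptor NOTCH3 had 454 and 456 scaled CPM in native libraries and 49.4 to 279 in cultured libraries (log2 fold change 2.07 ± 0.23, edgeR adjusted p = 0.000129). SRF, the transcription factor that binds contractile gene promoters, had 166 and 174 in native and 45.2 to 77.8 in cultured libraries (1.45 ± 0.17, adjusted p = 0.000137). Its coactivator MYOCD had 43.4 and 45.9 in native and 7.94 to 34.2 in cultured libraries, and with a log2 fold change of 1.26 ± 0.49 it did not pass (adjusted p = 0.0806).

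Genes of calcium handling and vascular tone took 0.385% of native counts, against 0.158% to 0.312% in cultured libraries. Of 58 tested, 22 were higher and 4 were lower in native, or 44.8% called beside 25.7% among all genes. The median log2 fold change was 0.68. The higher count was 9 without either native library and 14 without low-flow replicate 2, and the lower count was 2 without native replicate 1 and 1 without native replicate 2. RGS5, a brake on G protein signalling that marks mural cells, had 473 and 945 scaled CPM in native and 8.81 to 221 in cultured libraries (log2 fold change 3.72 ± 0.47, edgeR adjusted p = 0.000272), or 3.09 without native replicate 2, 4.45 against stented arteries only and 2.96 against arteries without a stent only. RAMP1, a subunit of the receptor for the vasodilator CGRP, had 256 and 219 in native and 3.76 to 26.1 in cultured libraries (4.40 ± 0.35, adjusted p = 1.43e-05), or 4.99 against stented arteries only and 3.78 against arteries without a stent only. KCNMB1, a subunit of the large-conductance potassium channel, had 318 and 360 in native and 7.51 to 112 in cultured libraries, but its call was lost without native replicate 1 (adjusted p = 0.0632) or native replicate 2 (adjusted p = 0.0870). ABCC9, the sulphonylurea receptor subunit of the vascular ATP-sensitive potassium channel, was lower, with 34.1 and 17.0 in native and 93.5 to 275 in cultured libraries (-2.85 ± 0.52, adjusted p = 0.00241).

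**Figure D3:**
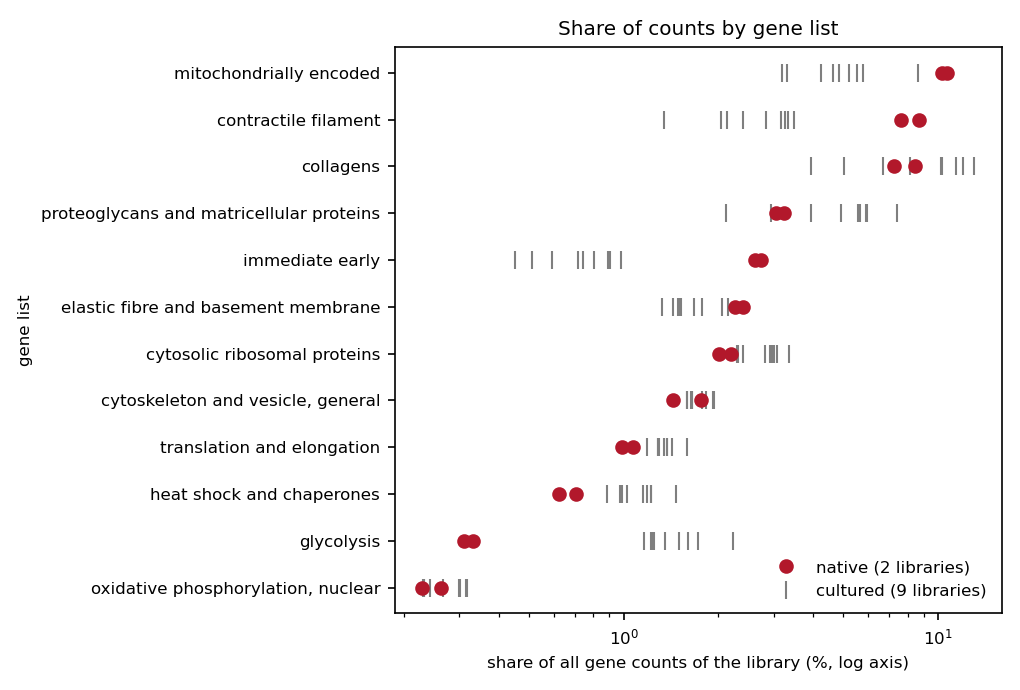
Share of all gene counts (%, log axis) taken by 12 gene lists in each of the 2 native libraries (red points) and 9 cultured libraries (grey ticks). Contractile, immediate early and mitochondrially encoded genes lie above every cultured library, and glycolysis and chaperone genes lie below.

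Collagen genes were abundant in native arteries, and the share of the list and its most counted chains overlapped culture, while other members differed. The list of collagens and collagen assembly took 7.87% of native counts (7.23% and 8.43%), within the 3.94% to 13.1% of the cultured libraries (median 10.2%). COL3A1 had 27492 and 32364 scaled CPM in native libraries and 2057 to 34708 in cultured libraries (median 18673), and COL1A1 had 20529 and 26006 in native and 7555 to 44633 in cultured libraries (median 24939). Neither passed (edgeR adjusted p = 0.178 and 0.803), and the groups overlapped. Of 21 members tested, 3 were higher and 7 were lower in native, or 47.6% called beside 25.7% among all genes. The median log2 fold change was -0.67. The count of lower genes was 1 without native replicate 1 and 2 without native replicate 2, and the count of higher genes was 2 without either.

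The 7 lower genes, named for making up that count, were COL6A3, COL16A1, the collagen chaperone SERPINH1, the prolyl hydroxylase subunits P4HA1 and P4HB and the lysyl hydroxylases PLOD1 and PLOD2, which modify collagen chains before secretion. PLOD1, which kept its call throughout, had 92.8 and 92.7 scaled CPM in native libraries and 220 to 713 in cultured libraries (log2 fold change -2.13 ± 0.38, edgeR adjusted p = 0.00211). P4HA1 had 89.2 and 112 in native and 187 to 650 in cultured libraries, and lost its call without native replicate 1 (adjusted p = 0.0664). COL6A3 had 1878 and 1526 in native and 3275 to 11002 in cultured libraries, and lost its call without native replicate 1 (adjusted p = 0.0602) or native replicate 2 (adjusted p = 0.0866). SERPINH1, P4HB, PLOD2 and COL16A1 also lost theirs without either native library. SERPINH1 lost it further without high-flow replicate 1, low-flow replicate 1 or low-flow replicate 2 and against stented arteries only (adjusted p = 0.0517, 0.0541, 0.0539 and 0.0516). COL16A1 lost it further without low-flow replicate 1 (adjusted p = 0.0662) or stented high-flow replicate 2 (0.0559), against stented arteries only (0.0793), with the cultured libraries as 1 group (0.0835) and with a replicate block (0.0574). For all 7 genes both native values lay below the cultured range (14.1% of all tested genes did so). For COL16A1 the margin was narrow, with 256.9 and 240.5 scaled CPM in native and at least 257.1 in cultured libraries. The 3 higher genes were COL21A1, COL8A2 and COL14A1, of which COL14A1 was the most counted, with 1006 and 952 in native and 69.5 to 557 in cultured libraries, and lost its call without native replicate 1 (adjusted p = 0.102) or native replicate 2 (adjusted p = 0.0939).

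Elastic fibre and basement membrane genes took 2.32% of native counts (2.39% and 2.25%), against 1.33% to 2.14% in cultured libraries. Of 31 tested, 12 were higher and 3 were lower in native, with a median log2 fold change of 0.63. Without native replicate 1 the higher count was 7, without native replicate 2 it was 9, and the 3 lower calls were lost in both cases. Without low-flow replicate 1 or low-flow replicate 2 the lower count was 1, and without high-flow replicate 2 it was 5. Elastin, ELN (chromosome 3, 11214194 to 11245891), had 4730 and 5307 scaled CPM in native libraries and 295 to 1587 in cultured libraries, with both native libraries above all cultured ones (log2 fold change 2.97 ± 0.33, edgeR adjusted p = 0.000111). LTBP4, which helps assemble elastic fibres and holds latent TGF-beta, had 1772 and 1422 in native and 75.6 to 248 in cultured libraries (3.54 ± 0.27, adjusted p = 1.26e-05). The basement membrane collagens COL18A1 and COL15A1 were higher (2.23 ± 0.23 and 2.03 ± 0.30), while the type IV collagen chain COL4A2 had 4367 and 4389 in native, inside the 2688 to 5282 of cultured libraries (adjusted p = 0.557).

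Proteoglycans and matricellular proteins moved in both directions. The list took 3.15% of native counts, against 2.12% to 7.42% in cultured libraries (median 5.58%). Of 42 tested, 19 were higher and 7 were lower in native, with a median log2 fold change of 0.70. Without either native library 9 were higher and 3 were lower. SPARCL1, a matricellular protein related to SPARC, had 3782 and 5098 scaled CPM in native and 33.0 to 822 in cultured libraries (log2 fold change 4.53 ± 0.54, edgeR adjusted p = 0.000177), or 5.36 against stented arteries only and 3.68 against arteries without a stent only. Tenascin X, TNXB, which organises collagen fibrils, had 1099 and 779 in native and 8.39 to 178 in cultured libraries (4.86 ± 0.34, adjusted p = 7.02e-06), or 4.24 against stented arteries only. IGFBP7, a secreted binding protein of growth factors, had 1826 and 2619 in native and 203 to 884 in cultured libraries (2.10 ± 0.22, adjusted p = 7.12e-05).

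Other members of the matricellular list were counted at high levels with less stable or no differences. MGP, an inhibitor of vessel calcification, had 4272 and 5213 scaled CPM in native and 492 to 3094 in cultured libraries. Its log2 fold change of 1.56 ± 0.46 (edgeR adjusted p = 0.0289) did not pass without native replicate 1 (adjusted p = 0.113), native replicate 2 (0.210) or low-flow replicate 1 (0.0564). Fibronectin, FN1, had 1495 and 1449 in native and 1797 to 42454 in cultured libraries (median 18241). It was lower by the test (-3.11 ± 0.62, adjusted p = 0.00422), a call lost narrowly without native replicate 1 (adjusted p = 0.0579) or native replicate 2 (0.0569). The small proteoglycan BGN had 2780 and 3392 in native and 4430 to 13081 in cultured libraries, and lost its lower call in the same way (adjusted p = 0.193 and 0.107) and against stented arteries only (0.0657). The collagen-binding proteoglycan DCN had 1645 and 1693 in native, inside the 984 to 3183 of cultured libraries (adjusted p = 0.793).

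Among the cell types of the wall, endothelial markers were detected at moderate levels. The list took 0.410% of native counts, against 0.179% to 0.487% in cultured libraries (median 0.219%). With scaled totals both native libraries lay above all cultured ones (0.442% and 0.499%, against 0.178% to 0.420%). This separation depended on KLF4 and KLF2, which are not restricted to endothelium. They had 449 and 337 scaled CPM in native replicate 1, against 50.3 and 108 in stented static replicate 1, the highest cultured library. Of 30 tested, 17 were higher and 1, the TGF-beta coreceptor ENG, was lower, with a median log2 fold change of 1.17. The higher count was 8 without native replicate 1 and 7 without native replicate 2, and ENG lost its call in both cases. The defining markers PECAM1 and CDH5, both adhesion proteins of endothelial junctions, did not pass. PECAM1 had 388 and 489 scaled CPM in native and 103 to 513 in cultured libraries (edgeR adjusted p = 0.0678), and CDH5 had 136 and 131 in native and 64.1 to 211 in cultured libraries (adjusted p = 0.597). VWF was not matched by symbol.

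The genes KLF4, KLF2, KDR, TEK and AQP1 were among the 17 higher members of the endothelial list. KLF4 had 449 and 438 scaled CPM in native and 26.7 to 70.5 in cultured libraries (log2 fold change 3.09 ± 0.22, edgeR adjusted p = 8.65e-06), and its relative KLF2 had 337 and 354 in native and 29.3 to 108 in cultured libraries (2.23 ± 0.34, adjusted p = 0.000783). Both encode transcription factors that respond to flow in endothelium, are also immediate early genes and are not restricted to endothelium. The VEGF receptor KDR had 82.2 and 71.2 in native and 6.67 to 51.4 in cultured libraries (2.01 ± 0.38, adjusted p = 0.00308), and the angiopoietin receptor TEK had 64.9 and 91.9 in native and 3.75 to 39.6 in cultured libraries (2.18 ± 0.37, adjusted p = 0.00163). AQP1, a water channel, had 393 and 513 in native and 43.2 to 157 in cultured libraries (2.08 ± 0.29, adjusted p = 0.000438). The nitric oxide synthase NOS3 had 28.8 and 35.8 in native, inside the 11.6 to 75.2 of cultured libraries (adjusted p = 0.971).

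Adventitial fibroblast markers differed in direction from each other. The list took 1.21% of native counts, against 0.707% to 1.04% in cultured libraries. Of 23 tested, 12 were higher and 4 were lower in native, with a median log2 fold change of 1.29, and without native replicate 1 or native replicate 2 the higher count was 6 and the lower counts were 2 and 1. PI16, a marker of adventitial fibroblasts, had 266 and 294 scaled CPM in native and 2.29 to 12.8 in cultured libraries (log2 fold change 5.76 ± 0.24, edgeR adjusted p = 8.27e-07), or 6.40 against stented arteries only and 5.09 against arteries without a stent only. SFRP4, a secreted modulator of WNT signalling, had 85.5 and 113 in native and 1.30 to 3.16 in cultured libraries (5.32 ± 0.25, adjusted p = 1.21e-06). PDGFRA, the receptor that marks fibroblasts broadly, lay on the other side, with 42.1 and 23.7 in native and 64.0 to 442 in cultured libraries, and its lower call was lost without native replicate 2 (adjusted p = 0.0935). GSN, an actin-severing protein that is not restricted to fibroblasts, had 6625 and 5872 in native and 405 to 3555 in cultured libraries (2.48 ± 0.30, adjusted p = 0.000184). It supplied 5399 of the 12108 pooled native CPM of the list. The larger native share of the list therefore rests in large part on GSN and does not show a larger share of fibroblasts.

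Pericyte markers took 0.329% of native counts, against 0.147% to 0.398% in cultured libraries, and with scaled totals 0.364% and 0.392%, against 0.152% to 0.344%. Of 12 tested, 8 were higher and 2 were lower in native, with a median log2 fold change of 1.30, and the higher count was 4 without native replicate 1 and 5 without native replicate 2. MCAM, an adhesion protein shared by mural and endothelial cells, had 851 and 882 scaled CPM in native and 63.2 to 114 in cultured libraries (log2 fold change 3.32 ± 0.21, edgeR adjusted p = 4.14e-06). The PDGF receptor PDGFRB had 580 and 373 in native, overlapping the 476 to 800 of cultured libraries (adjusted p = 0.297). RGS5 and NOTCH3, which also mark smooth muscle, belong to this list as well. Its defining markers, RGS5, KCNJ8 and ABCC9, differed in direction. RGS5 was higher, while ABCC9, one of the 2 lower genes, had 34.1 and 17.0 in native and 93.5 to 275 in cultured libraries. KCNJ8 had 61.0 and 53.4 in native and 23.5 to 53.0 in cultured libraries.

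**Figure D4:**
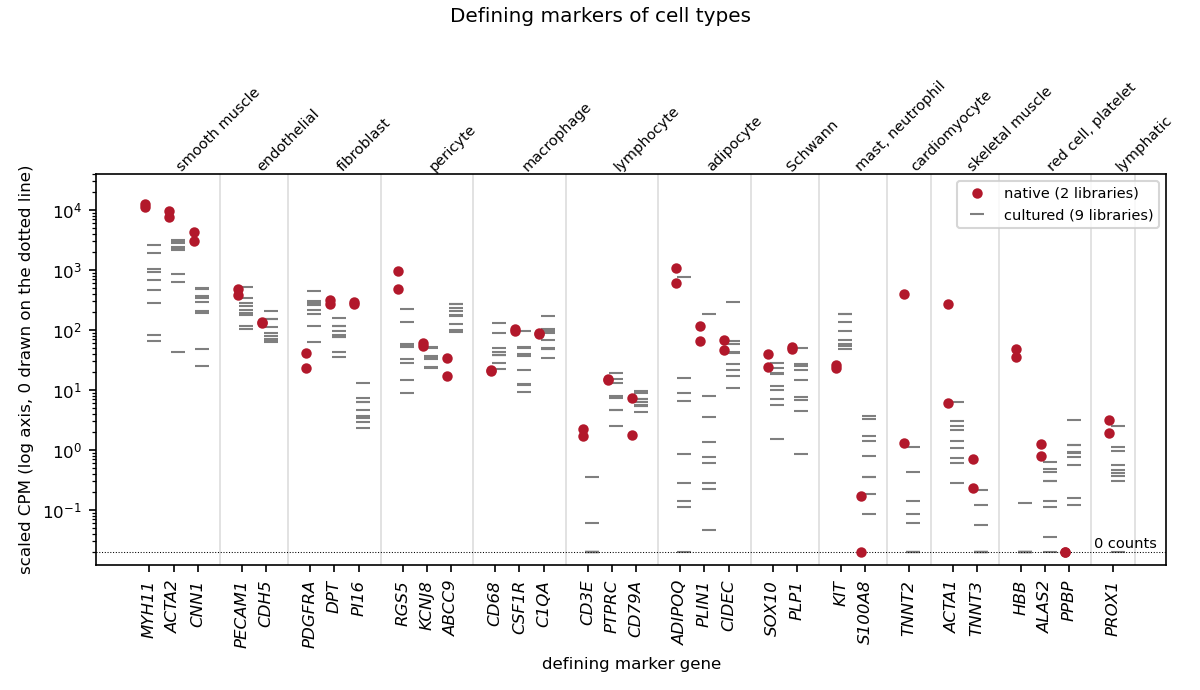
Scaled CPM (log axis, 0 drawn on the dotted line) of defining markers of cell types in the 2 native libraries (red points) and 9 cultured libraries (grey ticks). MYH11, ACTA2 and CNN1 lie at the top, PI16 lies above the cultured range, and the native values of TNNT2 and ACTA1 are far apart.

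Immune cell markers were at low levels in native arteries. Macrophage markers took 0.108% of native counts, near the lower end of the 0.0868% to 0.507% in cultured libraries. Of 24 tested, 3 were higher and 8 were lower in native, with a median log2 fold change of -0.70, and without either native library 2 were higher and 4 were lower. CD74, the invariant chain of MHC class II in antigen-presenting cells, had 518 and 532 scaled CPM in native and 15.1 to 96.0 in cultured libraries (log2 fold change 3.73 ± 0.44, edgeR adjusted p = 0.000181). The scavenger receptor CD163 had 55.2 and 46.1 in native and 93.1 to 1075 in cultured libraries (-2.60 ± 0.48, adjusted p = 0.00246). The galectin LGALS3 had 10.3 and 11.7 in native and 123 to 369 in cultured libraries (-4.21 ± 0.43, adjusted p = 7.17e-05). The defining markers C1QA, CSF1R and CD68 differed from each other. The complement subunit C1QA had 90.3 and 85.3 in native, inside the 34.1 to 171 of cultured libraries (adjusted p = 0.692). The growth factor receptor CSF1R was higher, with 105.0 and 94.45 in native and 9.09 to 94.53 in cultured libraries (1.62, adjusted p = 0.0142). That call was lost without either native library, with the cultured libraries as 1 group (0.116) and against stented arteries only (0.0915). CD68 had 20.5 and 21.4 in native, below the 22.7 to 129 of cultured libraries.

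Markers of lymphocytes, mast cells and neutrophils took 0.00375% and 0.00406% of native counts. The leukocyte phosphatase PTPRC had 14.8 and 15.1 scaled CPM in native and 2.52 to 18.8 in cultured libraries. The T cell receptor subunit CD3E had 2.21 and 1.73 in native and 0 to 0.356 in cultured libraries, and the mast cell IgE receptor subunit MS4A2 had 9.18 and 11.04 in native and 0 to 0.385 in cultured libraries. Such genes pass the filter on low counts only through the group in which they are high, and no count of members is read from these lists. The mast cell growth factor receptor KIT had 25.66 and 23.01 in native and 47.9 to 186 in cultured libraries, with a lower call that was lost without native replicate 1 (edgeR adjusted p = 0.0506) or native replicate 2 (0.0598).

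Adipocyte genes were clearly present in native arteries. The list took 0.394% of native counts (0.499% and 0.302%), against 0.0539% to 0.859% in cultured libraries (median 0.0966%). Of 21 tested, 11 were higher in native, with a median log2 fold change of 1.85, and the count was 5 without native replicate 1 and 7 without native replicate 2. ADIPOQ, the hormone adiponectin, had 1075 and 615 scaled CPM in native libraries. It had 765 in stented static replicate 1 and 0 to 15.7 in the other 8 cultured libraries, so the groups overlapped through that library. Its log2 fold change was 6.84 ± 1.22 (edgeR adjusted p = 0.00217), or 9.02 without stented static replicate 1 and 9.07 without high-flow replicate 2. With the cultured libraries as 1 group it was 3.25 and did not pass (adjusted p = 0.291), and by limma-voom it was 8.43. LPL, the lipase of fat and muscle capillaries, had 1011 and 655 in native and 4.45 to 509 in cultured libraries (3.96 ± 0.50, adjusted p = 0.000250), or 3.14 with the cultured libraries as 1 group. How much surrounding fat each vessel carried was not tested.

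For several heart muscle genes the native level rested on native replicate 1. The cardiomyocyte list took 0.302% of counts in native replicate 1 and 0.0880% in native replicate 2, against 0.0151% to 0.0291% in cultured libraries. Of 22 matched members 20 passed the filter on low counts, some of them only through the native group in which they are high. No count of members is therefore read from this list. The atrial-type myosin heavy chain MYH6 had 539 and 1.67 scaled CPM in native libraries and 0.0350 to 3.56 in cultured libraries, and its call was lost without native replicate 1 (edgeR adjusted p = 0.427) and by limma-voom (adjusted p = 0.0686). The cardiac troponin T gene TNNT2 had 403 and 1.32 in native and 0 to 1.12 in cultured libraries, and likewise lost its call (adjusted p = 0.130). The sarcomeric actins ACTC1, with 197 and 2.42, and ACTA1, with 276 and 6.15 in native libraries, did the same (adjusted p = 0.188 and 0.264). The defining markers MYH7 and TNNI3 were not matched by symbol.

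A few genes of the cardiac list were high in both native libraries. TNNC1, the troponin C of heart and slow skeletal muscle, had 704 and 638 scaled CPM in native and 1.90 to 31.1 in cultured libraries (log2 fold change 5.64 ± 0.58, edgeR adjusted p = 7.35e-05), and 5.57 without native replicate 1. MYL4, an atrial and embryonic myosin light chain, had 473 and 120 in native and 2.19 to 5.78 in cultured libraries (6.41 ± 0.40), or 5.11 without native replicate 1 and 7.04 without native replicate 2. Whether TNNC1 came from the same cells as MYH6 and TNNT2 was not tested.

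Genes of Schwann cells, which ensheath the nerves of the adventitia, were also higher in native arteries. The list took 0.130% of native counts (0.131% and 0.129%), against 0.0353% to 0.0698% in cultured libraries. Of 20 tested, 13 were higher and 1 was lower, with a median log2 fold change of 1.81, and the higher count was 11 without native replicate 1 and 7 without native replicate 2, where 2 genes were lower. The myelin gene MBP had 136 and 101 scaled CPM in native and 4.93 to 43.2 in cultured libraries (log2 fold change 3.28 ± 0.30), and PRX, with 91.8 and 73.9 in native and a median of 7.28 in cultured libraries (3.44 ± 0.19), was higher too. The Schwann cell transcription factor SOX10 had 40.4 and 24.2 in native and 1.51 to 28.6 in cultured libraries and did not pass (edgeR adjusted p = 0.0624).

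Blood, mesothelial and lymphatic markers were sparse. The haemoglobin chain HBB had 35.3 and 47.4 scaled CPM in native libraries and at most 0.128 in cultured libraries. The platelet chemokine PPBP had 0 counts in both native libraries, an upper limit of 0.171 and 0.148 CPM by counting error only, and 0.122 to 3.20 scaled CPM in cultured libraries. The epithelial and mesothelial keratin KRT8 had 33.3 and 35.1 in native and 0 to 1.37 in cultured libraries. PDPN, found on lymphatic, mesothelial and activated stromal cells, was lower, with 11.9 and 18.1 in native and 131 to 357 in cultured libraries (log2 fold change -3.77 ± 0.38, edgeR adjusted p = 6.79e-05), while the lymphatic factor PROX1 had 3.13 and 1.90 in native and 0 to 2.49 in cultured libraries (adjusted p = 0.102).

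Immediate early genes, which are switched on within minutes by growth factors, stretch or stress without new protein synthesis, were among the most counted genes of the native artery. The list took 2.68% of native counts (2.74% and 2.62%), against 0.451% to 0.978% in cultured libraries. Of 54 tested of 56 matched, 39 were higher and 2 were lower in native, or 75.9% called beside 25.7% among all genes. The median log2 fold change was 1.83. In 36 of the 54 both native libraries lay above all cultured ones (16.9% of all tested genes did so). The higher count was 29 without native replicate 1 and 34 without native replicate 2, and both lower calls were lost without either. The zinc finger factor EGR1 (chromosome 2, 140440829 to 140445302) had 7611 and 8459 scaled CPM in native libraries. Cultured libraries with a stent had 52.0 and 65.5 without flow, and 259, 81.0 and 112 under high flow. Cultured libraries without a stent had 387 and 273 under high flow, then 70.7 and 125 under low flow. The native values exceeded every cultured value by more than an order of magnitude, and the log2 fold change was 5.95 ± 0.34 (edgeR adjusted p = 3.01e-06).

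The immediate early genes FOS, FOSB, JUN, NR4A1 and ZFP36 were likewise above every cultured library in both native libraries. FOS had 3205 and 3394 scaled CPM in native and 10.9 to 192 in cultured libraries (log2 fold change 6.15 ± 0.47, edgeR adjusted p = 1.15e-05). Its relative FOSB had 1374 and 753 in native and 1.12 to 52.8 in cultured libraries (7.68 ± 0.54, adjusted p = 7.02e-06), or 6.76 with the cultured libraries as 1 group, 8.27 against stented arteries only and 7.05 against arteries without a stent only. Its partner JUN had 1537 and 1500 in native and 60.3 to 304 in cultured libraries (3.38 ± 0.30, adjusted p = 2.60e-05). The orphan nuclear receptor NR4A1 had 2273 and 1475 in native and 15.5 to 95.6 in cultured libraries (5.86 ± 0.30, adjusted p = 1.89e-06). ZFP36, which destabilises inflammatory mRNAs, had 1603 and 1628 in native and 49.8 to 263 in cultured libraries (3.80 ± 0.39, adjusted p = 6.71e-05). CEBPD, a factor induced in inflammation, was one of the 2 lower genes, with 213 and 186 in native and 230 to 1201 in cultured libraries, and its lower call was lost without native replicate 1 (adjusted p = 0.159) or native replicate 2 (0.201), with the cultured libraries as 1 group (0.0706) and against arteries without a stent only (0.0673).

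The 13 protein genes of the mitochondrial genome took 10.5% of native counts (10.3% and 10.7%), against 3.19% to 8.65% in cultured libraries (median 4.85%). Of the 13, 10 were higher in native, with a median log2 fold change of 1.94, and the count was 10 without native replicate 1 and 8 without native replicate 2. They differed unequally. CYTB, the cytochrome b of complex III, had 10587 and 9466 scaled CPM in native and 573 to 1316 in cultured libraries (log2 fold change 3.38 ± 0.26, edgeR adjusted p = 1.14e-05). ATP6 had 13567 and 16091 in native and 2323 to 4666 in cultured libraries (2.18 ± 0.23, adjusted p = 9.30e-05), and COX3 had 17490 and 16964 in native and 5628 to 11579 in cultured libraries (1.23 ± 0.24, adjusted p = 0.00383). COX1, the most counted of them, had 30306 and 23949 in native and 9339 to 37411 in cultured libraries, which overlapped (0.52 ± 0.34, adjusted p = 0.292).

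The nuclear genes of oxidative phosphorylation did not show such a difference. They took 0.244% of native counts (0.262% and 0.228%), against 0.230% to 0.317% in cultured libraries. Of 39 tested of 41 matched, 0 were lower and 3 were higher in native, or 7.69% called beside 25.7% among all genes (15.9% higher). The median log2 fold change was 0.12. The count was 1 without native replicate 2, and all 3 calls were lost without native replicate 1. The oxidase subunit COX4I1 had 293 and 267 scaled CPM in native, inside the 143 to 344 of cultured libraries (adjusted p = 0.328). The ATP synthase subunit ATP5F1A had 257 and 210 in native, inside 181 to 359 (adjusted p = 0.989).

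Most glycolytic genes were lower in native arteries. They took 0.320% of native counts (0.331% and 0.310%), against 1.16% to 2.23% in cultured libraries. Of 21 tested, 13 were lower in native and 2 were higher, with a median log2 fold change of -1.65, and the lower count was 10 without native replicate 1 and 11 without native replicate 2. The enolase ENO1 had 325 and 326 scaled CPM in native libraries, against 1849 to 4274 in cultured libraries (log2 fold change -3.02 ± 0.39, edgeR adjusted p = 0.000307). The pyruvate kinase PKM had 432 and 458 in native and 1608 to 3226 in cultured libraries (-2.47 ± 0.31, adjusted p = 0.000237), and GAPDH had 924 and 850 in native and 2282 to 4844 in cultured libraries (-1.90 ± 0.34, adjusted p = 0.00204). Lactate dehydrogenase LDHA had 54.5 and 76.4 in native and 579 to 1445 in cultured libraries (-3.81 ± 0.39, adjusted p = 7.17e-05). The lactate exporter SLC16A3 had 1.24 and 0.288 in native and 64.0 to 276 in cultured libraries (-7.23 ± 0.80), or -8.59 without native replicate 1 and -6.55 without native replicate 2. The 2 higher genes were PFKM and PFKFB3, and both lost their call without native replicate 1 (adjusted p = 0.219 and 0.536), PFKM also without native replicate 2 (0.0693). With the cultured libraries as 1 group neither passed (adjusted p = 0.0613 and 0.0975), and PFKFB3 did not pass against stented arteries only (0.165).

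**Figure D5:**
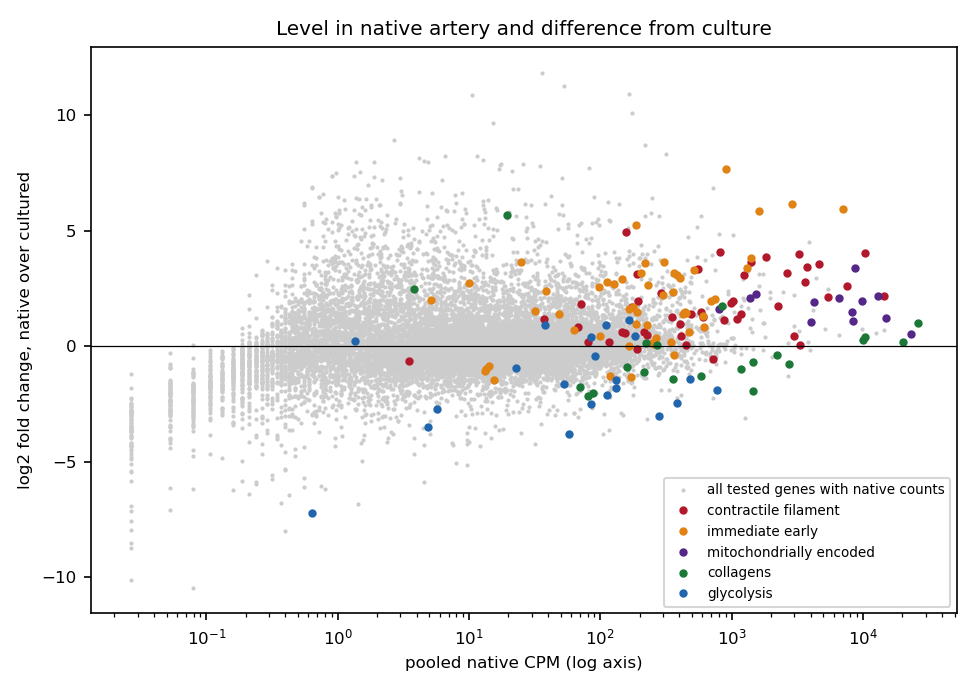
Log2 fold change of native over cultured arteries against pooled native CPM (log axis) for all tested genes with native counts (grey) and members of 5 lists (coloured). Contractile, immediate early and mitochondrially encoded genes combine a high native level with a positive fold change, collagens spread around 0 and glycolytic genes lie below 0.

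Genes of lipid use took 0.181% of native counts, against 0.0918% to 0.316% in cultured libraries. Of 24 tested, 0 were lower and 6 were higher in native, or 25.0% called beside 25.7% among all genes (15.9% higher and 9.79% lower). That count was 3 without either native library and 11 without stented static replicate 1. Genes of translation took 1.03% of native counts, below the 1.19% to 1.59% of the cultured libraries, but with scaled totals the groups overlapped (1.12% and 1.25%, against 1.11% to 1.58%). Ribosomal protein genes took 2.11%, below the 2.29% to 3.36% of the cultured libraries, and likewise overlapped with scaled totals (2.29% and 2.56%, against 2.15% to 3.32%). Single genes hardly passed. Of 45 ribosomal protein genes tested of 48 matched, 1 was lower in native, or 7 without stented high-flow replicate 1 and 2 without stented high-flow replicate 3, and the median log2 fold change was -0.15. The elongation factor EEF2, at 2673 pooled CPM the most counted of the translation list, had 3083 and 3081 scaled CPM in native, inside the 2201 to 3366 of cultured libraries (edgeR adjusted p = 0.728).

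Chaperone genes took 0.665% of native counts, against 0.886% to 1.47% in cultured libraries. HSP90AA1, the most counted of them, had 1357 and 1591 scaled CPM in native, inside the 1156 to 2236 of cultured libraries (edgeR adjusted p = 0.831). Iron, redox and metallothionein genes took 0.198% of native counts, against 0.294% to 0.966% in cultured libraries, and 5 were higher and 10 lower of 24 tested, or 2 and 4 without either native library. The haem-degrading enzyme HMOX1 had 14.9 and 10.8 in native and 61.6 to 418 in cultured libraries (log2 fold change -3.53 ± 0.41, adjusted p = 0.000161). Complement and coagulation genes took 0.302% of native counts, against 0.606% to 0.944% in cultured libraries.

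Cytokine and chemokine genes took 0.104% of native counts, against 0.0841% to 0.316% in cultured libraries, and of 25 tested, 7 were higher and 6 were lower in native. The higher count was 5 without either native library, and the lower counts were 5 and 4. CXCL2, which attracts neutrophils, had 278 and 361 scaled CPM in native and 1.70 to 16.4 in cultured libraries (log2 fold change 5.62 ± 0.42, edgeR adjusted p = 1.07e-05). The monocyte chemokine CCL2 lay on the other side, with 106 and 92.1 in native and 223 to 1017 in cultured libraries (-2.14 ± 0.38, adjusted p = 0.00199).

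Circadian clock genes took 0.225% of native counts, against 0.0790% to 0.172% in cultured libraries. Of 18 tested, 11 were higher and 2 were lower in native, with a median log2 fold change of 1.13, and the higher count was 6 without native replicate 1 and 7 without native replicate 2. The repressor CRY2 had 367 and 229 scaled CPM in native and 11.9 to 22.0 in cultured libraries (log2 fold change 4.12 ± 0.20, edgeR adjusted p = 1.23e-06). The output factor HLF had 61.2 and 71.2 in native and 2.01 to 10.04 in cultured libraries (3.92 ± 0.31, adjusted p = 1.28e-05), and the repressor PER2 had 87.3 and 62.1 in native and 8.38 to 22.4 in cultured libraries (2.57 ± 0.26, adjusted p = 5.75e-05). The 2 lower genes were the activators BMAL1, with 7.03 and 7.82 in native and 19.8 to 28.4 in cultured libraries (-1.63 ± 0.23), and NPAS2, with 25.1 and 22.1 in native and 50.7 to 153 in cultured libraries (-2.05 ± 0.28). The hour of sampling is not stated in the labels.

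Cell cycle genes were at low levels in native arteries. They took 0.0259% of native counts, against 0.0330% to 0.100% in cultured libraries, and overlapped them with scaled totals (0.0273% and 0.0322%, against 0.0285% to 0.104%). The median log2 fold change was -1.07. Of 24 tested, 5 were lower in native, or 20.8% called beside 25.7% among all genes (9.79% lower). These calls were lost without either native library. The count was 8 without stented static replicate 1, 9 without stented high-flow replicate 1 and 3 without high-flow replicate 1 or low-flow replicate 1. The general cytoskeleton list took 1.61% of native counts, against 1.58% to 1.94% in cultured libraries. The intermediate filament VIM, its most counted member, had 5011 and 6823 scaled CPM in native and 2728 to 5944 in cultured libraries and did not pass (edgeR adjusted p = 0.0735).

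Among the 500 most counted native genes with a symbol, the 10 with the largest positive change were ADAMTS8, FOSB, ADIPOQ, MYL4, FOS, EGR1, NR4A1, TNNC1, CXCL2 and ADAMTS15. The secreted metalloprotease ADAMTS8 (chromosome 9, 57090313 to 57113077) had 388 and 347 scaled CPM in native and 0.112 to 3.95 in cultured libraries, the largest fold change of the 10 (log2 fold change 8.34 ± 0.45, edgeR adjusted p = 1.96e-06). Its relative ADAMTS15 had 726 and 539 in native and 3.70 to 46.8 in cultured libraries (5.17 ± 0.41, adjusted p = 1.44e-05). The 10 with the largest negative change were FN1, ENO1, PKM, MMP14, MMP2, CTSB, COL6A3, GAPDH, LUM and CTSD, so they combined matrix proteins, glycolytic enzymes and proteases. The membrane-bound collagenase MMP14 had 412 and 474 in native and 1468 to 2732 in cultured libraries (-2.23 ± 0.32, adjusted p = 0.000524), and the lysosomal protease CTSB had 453 and 490 in native and 1312 to 4824 in cultured libraries (-2.09 ± 0.37, adjusted p = 0.00215). The gelatinase MMP2 had 811 and 838 in native and 1923 to 7666 in cultured libraries, with a call lost without native replicate 1 (adjusted p = 0.0592) or native replicate 2 (0.0518). LUM and CTSD passed by a small margin (adjusted p = 0.0480 and 0.0467), and their calls were lost without either native library. LUM also lost its call without high-flow replicate 1, either low-flow replicate or stented high-flow replicate 1 or 2, and CTSD without high-flow replicate 2, either low-flow replicate or any stented high-flow replicate. Both did not pass against stented arteries only (adjusted p = 0.0951 and 0.0554), with the cultured libraries as 1 group (0.0582 and 0.0643) or with at least 10 counts in every library (0.0561 and 0.0557), nor did CTSD with a replicate block (0.0714).

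Of the 100 most counted genes, 12 had a symbol but belonged to none of the lists. Of these, 10 were higher in native, beside 59 of all 100, and choosing genes by their native level favours the higher ones. WIF1, a secreted WNT inhibitor, had 939 and 1380 scaled CPM in native and 5.14 to 85.2 in cultured libraries (log2 fold change 4.83 ± 0.50, edgeR adjusted p = 7.26e-05). The laminin receptor BCAM had 1570 and 1529 in native and 55.1 to 468 in cultured libraries (3.24 ± 0.46, adjusted p = 0.000539). DSTN, which disassembles actin filaments, had 1585 and 2127 in native and 141 to 498 in cultured libraries (2.60 ± 0.35, adjusted p = 0.000376). The Z-disc and dense-body protein gene NEXN had 1052 and 1706 in native and 31.1 to 378 in cultured libraries (2.90 ± 0.44, adjusted p = 0.000849), and PMEPA1, a TGF-beta target, had 1206 and 1247 in native and 154 to 520 in cultured libraries (1.98 ± 0.18, adjusted p = 3.45e-05). These 5 were picked from the higher genes after their values were seen.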

How the data were processed

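RNA sequencing of native and cultured porcine coronary arteries was analysed from gene counts. Per the labels' protocols, RNA came from flash-frozen vessels by column purification with a DNase step. Trimmomatic, FastQC, DESeq2 and the Sscrofa11.1 build are named in the submitters' processing notes, which name no aligner, counter, annotation release or strand setting. The authors deposited whole-number counts per gene and library in 2 tables, which were joined by gene and whose native columns are identical. Their 4 lists of changed genes were not used here. Of 25880 gene identifiers 14857 had a symbol. Gene positions were looked up by symbol in RefSeq for Sscrofa11.1.

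Counts were analysed with edgeR 4.0.16 in R 4.3.3, with filterByExpr and TMM. All 5 groups entered 1 quasi-likelihood fit, tested by F-test as native minus the mean of the 4 cultured coefficients, with Benjamini-Hochberg adjustment at 0.05. The fit had a common dispersion of 0.126, 6 residual degrees of freedom and 5.02 prior ones, and log2 CPM used a prior count of 2. Standard errors are the fold change divided by the square root of F. The pipeline was tested on simulated data. Members, lists and tests were chosen with earlier results of these data known. The 32 lists hold 978 entries, of which 844 matched a symbol. List shares are of raw counts, and counting error of a share (95% Wilson) is at most 0.0146 percentage points.

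Named genes were the 30 most counted native genes (of those without a symbol, 2), up to 4 most counted members per list, the defining markers of each cell type, and the 10 largest positive and 10 largest negative changes among the 500 most counted. Not every gene of this rule is printed, and some genes are not reported here. Chosen after their values had been seen were also ACTB, ACTC1, ACTG1, ACTG2, BCAM, BMAL1, CD163, CEBPD, COL8A2, COL14A1, COL16A1, COL21A1, CSRP1, DSTN, ENG, GPX4, HLF, HMOX1, IGFBP7, JUN, JUNB, KDR, KLF2, LDHA, LGALS3, LTBP4, MYL6, MYLK, MYOCD, NDUFA2, NEXN, NOS3, NPAS2, P4HA1, P4HB, PER2, PFKFB3, PFKM, PLOD1, PLOD2, PMEPA1, PRX, RAMP1, RPL29, RPS27A, SERPINH1, SFRP4, SLC16A3, TAGLN, TEK, TNXB, TPI1 and WIF1. Sequences and transcript lengths were not used here.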

Additional observations from a re-analysis of the deposited data

How the results depend on the processing

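In every setting run, no gene that passed both there and in the analysis described above changed direction. An adjusted p under 0.01 left 2064 genes, 1502 of them higher and 562 lower in native. With 1 library left out, 1693 to 4492 genes passed, 1309 to 2684 of them higher and 365 to 1808 lower, where a lone native library is assumed to vary like the other groups. Of 169 named genes that passed, 55 lost their call without native replicate 1, 53 without native replicate 2, 41 at an adjusted p under 0.01, 26 with the cultured libraries as 1 group, 22 with native and stented libraries only, 8 with a replicate block, 4 with native and no-stent libraries only 2 with at least 10 counts in every library, 1 without the filter and 1 by limma-voom, while DESeq2 kept every call. DESeq2 1.42.0 called 4685 genes, limma-voom with limma 3.58.1 called 3864, RLE size factors 3940, omitting the filter 4426, requiring 10 counts or more in each library 2804, cultured libraries as 1 group 3301, native with stented libraries only 2798, native with no-stent libraries only 4441 and leaving out mitochondrially encoded genes 3939. A replicate block gave 3592 calls, 3454 of them shared. Same-numbered libraries deviated from their group means with correlations of -0.329 to 0.183. With 2 or 3 libraries per group, such correlations cannot decide whether the title numbers pair the samples. The names of native replicate 2 and stented high-flow replicate 1 also share a number that the labels do not explain. Their deviations correlated at 0.0412, and that single pair was not blocked. The number of genes holding 50% of native counts was 365 without mitochondrially encoded genes (cultured libraries 337 to 686), and 235 or 240 without a native library. The 100 most counted native genes shared 46 with those of stented static arteries, 50 with stented high-flow, 48 with high-flow and 51 with low-flow once mitochondrially encoded genes were left out, and 47 with stented static by the mean of library CPM. TMM-scaled totals multiply every native level and share by the same factor. Levels per transcript length were not run, since no exon lengths of the build were at hand. With 2 native libraries, small differences cannot be seen at any depth.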
